A study of Rattus norvegicus with 16 samples.

Results

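Complement components and their regulators were followed as 8 genes in glomeruli of 16 rats: C1r, C1s, C2, C3, Serping1, Cd55, Cr1l and Cd59. They were chosen by name as 8 of 9 listed complement genes found among the 13222 genes of the table, and Cfb, the other listed gene, was not analysed here. That list was drawn up with earlier results of these data known. All rats were male Wistar rats of about 175 g, and their glomeruli were sieved from the kidney and harvested on day 11. The labels name 4 rats in each of 4 groups. Control rats are labelled healthy. PAN rats received puromycin aminonucleoside, a podocyte toxin that causes nephrotic syndrome, by intravenous injection. PAN_Pio rats received PAN and daily oral pioglitazone, and PAN_GQ-16 rats received PAN and daily oral GQ-16. Both compounds are agonists of the nuclear receptor PPARγ. The remaining gavage named in the labels is a daily sham vehicle, without saying whether PAN or control rats or both received it, and no dose is stated. Nothing beyond the labels shows that the libraries are separate animals, so the p-values measure the spread between libraries. The labels number no replicates, and the replicate numbers used here follow the order of deposit and only name the rats.

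Complement is a cascade of proteins that marks and lyses targets and attracts leukocytes. In the classical pathway the recognition protein C1q activates the proteases C1r and C1s, which cleave C4 and C2 to form the enzyme that cleaves C3, the component on which all pathways converge. Serping1 (C1 inhibitor) inactivates C1r and C1s, Cd55 (decay-accelerating factor) and the rodent regulator Cr1l (Crry) disassemble or inactivate the C3-cleaving enzymes, and Cd59 blocks assembly of the lytic pore. The glomerulus is a known site of complement injury, and podocytes, endothelial cells and mesangial cells carry membrane regulators.

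Values are CPM, a gene's reads relative to the total of its library over the listed genes. Library totals ran from 13351137 to 21977663 reads, and mitochondrial genes took 13.7% to 39.0% of the reads in control, 5.83% to 10.6% in PAN, 8.61% to 19.0% with pioglitazone and 6.63% to 30.9% with GQ-16. With PAN the typical gene had a log2 change from control of 0.28 in CPM, and of -0.0025 after median-ratio scaling, which sets the typical gene near no change, so that changes against control are given on both scales. All 8 listed podocyte markers were found, with summed levels of 2300 to 15542 CPM, and 7 of 8 glomerular endothelial markers, each at 286 CPM or more in every library. Proximal tubule markers were also present, with summed levels of 3225 to 14138 CPM and 0 of 8 called in PAN against control. Of 8 distal nephron and collecting duct markers, 4 were called lower in PAN than in control (3 after median-ratio scaling), with sums of 516 to 1093 CPM against 962 to 1676 CPM. Of all genes, 22.3% were called in either direction there and 21.7% were called higher (8.63% and 7.12% after median-ratio scaling). Library numbers of 25 or higher belong to 3 of 4 PAN rats, to 1 rat in each treated group and to no control rat.

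RefSeq promoters (assembly GRCr8) were matched for 4 of the 8 genes, C1r, C3, Cd55 and Cr1l. The 250 bases before the start are shown for C1r and Cd55, which rose with PAN, and for C3, which did not pass the test. Each reads 5′ to 3′ on the gene's strand, and capitals mark every match, on either strand, to the motifs searched: the TATA box TATAAA, the CCAAT box, the GC box GGGCGG, the C/EBP motif TTGCNNAA, the GAS motif TTCNNNGAA, the ISRE core and, as a nuclear receptor half-site, AGGTCA.
C1r (chr4:159098763-159099012, plus strand): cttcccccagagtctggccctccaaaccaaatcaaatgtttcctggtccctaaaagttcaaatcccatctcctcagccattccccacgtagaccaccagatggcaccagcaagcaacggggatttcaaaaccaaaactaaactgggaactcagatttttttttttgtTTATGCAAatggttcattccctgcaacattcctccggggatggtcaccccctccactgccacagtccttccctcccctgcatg
Cd55 (chr13:44438102-44438351, minus strand): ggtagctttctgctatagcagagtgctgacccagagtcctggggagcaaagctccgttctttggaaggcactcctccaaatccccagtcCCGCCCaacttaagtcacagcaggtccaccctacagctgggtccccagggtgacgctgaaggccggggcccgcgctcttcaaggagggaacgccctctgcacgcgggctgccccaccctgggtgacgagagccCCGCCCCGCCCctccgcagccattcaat
C3 (chr9:2201340-2201589, minus strand): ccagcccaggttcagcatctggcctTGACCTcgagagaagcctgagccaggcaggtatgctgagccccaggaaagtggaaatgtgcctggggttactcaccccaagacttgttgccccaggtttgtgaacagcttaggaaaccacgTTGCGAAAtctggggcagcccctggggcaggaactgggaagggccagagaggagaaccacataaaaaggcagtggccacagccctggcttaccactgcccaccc
The C1r window held 1 C/EBP match, from -83 to -76, and the C3 window held 1 from -104 to -97. Of all 33469 promoters in the RefSeq table, 9.22% held that motif in the same window. C3 also held an AGGTCA match from -225 to -220, present in 14.1% of promoters. Cd55 held 3 GC boxes, at -161 to -156, -28 to -23 and -23 to -18, of which the last 2 overlap by 1 base, and 30.5% of promoters held at least 1. The Cd55 window was 64.4% G or C, against 49.6% for C1r and a median of 51.2% over all promoters. The Cr1l window, not printed, held a pair of overlapping TATAAA matches from -241 to -234, a motif found in 12.9% of promoters. A match is a description of letters and not a binding site.

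The comparison of PAN with control asks what the injury did to complement transcripts. C1r, Serping1, Cd55 and C2 were higher in PAN, with fitted folds of 3.48, 2.97, 4.28 and 2.04 on the log2(CPM + 1) scale, and C1s, C3, Cr1l and Cd59 did not pass the test. Thus 4 of 8 genes were called (limma adjusted p under 0.05 over all genes), all higher, where 22.3% of all genes were called and 21.7% were called higher. After median-ratio scaling C1r and Serping1 were called, 2 of 8, where 8.63% of all genes were called and 7.12% were called higher. With a term for library numbers of 25 or higher 0 of the 8 were called by limma, where 2.97% of all genes were. The 4 PAN rats were all above the 4 control rats for C1r, C1s and Serping1, 3 of 8 genes on either scale, where 22.4% of all genes were as deposited and 10.6% after median-ratio scaling. The median log2 change of the 8 genes was 1.24, against 0.28 for all genes, and 1.02 against -0.0025 after median-ratio scaling. Because the 8 genes were chosen with earlier results of these data known, these shares and medians describe them and are no independent support. In these bulk samples, more cells of a type and more RNA per cell cannot be told apart.

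**Figure D1:**
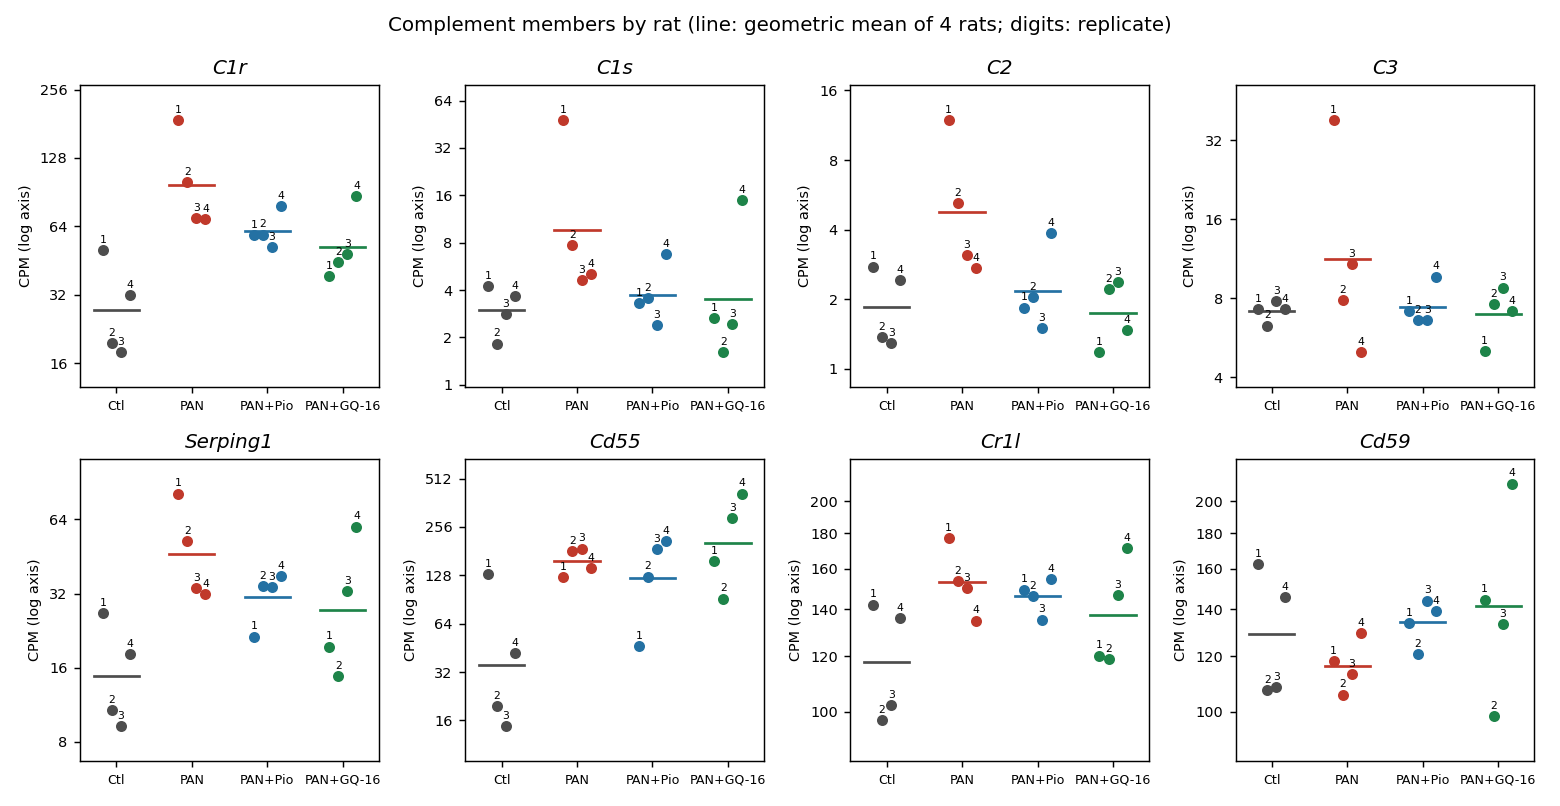
Level of each complement gene in CPM (log axis) for the 16 rats, by group, with replicate numbers and the geometric mean of 4 rats as a line. The 4 PAN rats lie above the 4 control rats for C1r, C1s and Serping1, and PAN replicate 1 is the highest PAN rat for 6 of the genes, Cd55 and Cd59 being the exceptions.

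C1r (ENSRNOG00000011796), the protease that starts the classical cascade inside the C1 complex, was 50.2, 19.6, 17.9 and 31.8 CPM in control replicates 1 to 4 and 188, 101, 69.8 and 69.1 CPM in PAN replicates 1 to 4. Every PAN rat was above every control rat. The log2 change was 1.80 (SE 0.346, limma adjusted p 0.00333), and 1.51 after median-ratio scaling (limma adjusted p 0.00746). C1r kept its call with any 1 library left out, with log2 changes from 1.49 to 2.08, and also after median-ratio scaling with any 1 library left out, from 1.22 to 1.72. With the library-number term the log2 change was 1.27 and the limma adjusted p was 0.0835. The only PAN rat numbered 15 or lower was replicate 4, at 69.1 CPM, and all 4 control rats carried such numbers.

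C1s (ENSRNOG00000011971), the protease that C1r activates and that cleaves C4 and C2, was 4.23, 1.83, 2.81 and 3.66 CPM in control and 48.3, 7.73, 4.64 and 5.04 CPM in PAN replicates 1 to 4. The PAN rats were again all above the control rats, but 1 of them was over 6 times the next. The log2 change of 1.45 (SE 0.616) had a limma adjusted p of 0.0898, after median-ratio scaling it was 1.22 (limma adjusted p 0.207), and without PAN replicate 1 it was 0.73. C2 (ENSRNOG00000051235), which supplies the protease of the classical C3-cleaving enzyme, was 2.77, 1.38, 1.30 and 2.43 CPM in control and 11.9, 5.20, 3.11 and 2.74 CPM in PAN. The ranges of C2 overlapped slightly, since the lowest PAN rat lay below control replicate 1. The change of C2 was 1.03 (SE 0.333, limma adjusted p 0.0384), 0.83 after median-ratio scaling (limma adjusted p 0.113) and 0.66 without PAN replicate 1 (limma adjusted p 0.123). C2 and C1s are the least abundant of the 8, with as few as 20 and 21 reads in a library, and C2 reached 2 CPM in 10 of the 16 libraries, close to the limit of 8 that every gene of the table meets.

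C3 (ENSRNOG00000046834), the component cleaved by all pathways, was 7.28, 6.29, 7.81 and 7.28 CPM in control and 38.4, 7.85, 10.8 and 4.98 CPM in PAN. The control rats agreed closely, while the PAN rats lay on both sides of them. The log2 change was 0.62 (SE 0.389, limma adjusted p 0.228), 0.35 after median-ratio scaling (limma adjusted p 0.574) and 0.07 without PAN replicate 1. C3 was 7.17, 6.59, 6.58 and 9.67 CPM with pioglitazone and 5.01, 7.60, 8.79 and 7.14 CPM with GQ-16, so that PAN replicate 1 was the only rat of 16 above 10.8 CPM.

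Serping1 (ENSRNOG00000007457), the inhibitor of C1r and C1s, was 26.6, 10.7, 9.27 and 18.2 CPM in control and 81.6, 52.3, 33.6 and 31.7 CPM in PAN, with no overlap. The log2 change was 1.57 (SE 0.404, limma adjusted p 0.0165), and 1.29 after median-ratio scaling (limma adjusted p 0.0348). The call was lost without control replicate 2 or 3 (limma adjusted p 0.0690 and 0.0684), without PAN replicate 1 (0.0626) and with the library-number term (0.277). After median-ratio scaling Serping1 was called in 3 of 8 fits with 1 library left out, with limma adjusted p-values from 0.0181 to 0.124. Serping1, C1r and Cr1l went together from library to library. Over 16 libraries the Pearson correlation of log2(CPM + 1) values was 0.94 for Serping1 with C1r, 0.92 for Serping1 with Cr1l and 0.90 for C1r with Cr1l, and 0.89, 0.88 and 0.89 after each group's mean was subtracted. The points share the library total, and the values are given as a description.

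Cd55 (ENSRNOG00000003927), which accelerates decay of the C3-cleaving enzymes, had the largest change of the 8 and the widest spread in control. It was 130, 19.6, 14.8 and 41.8 CPM in control replicates 1 to 4 and 125, 182, 187 and 141 CPM in PAN. The groups overlapped, since control replicate 1 lay above PAN replicate 1. The log2 change was 2.10 (SE 0.603, limma adjusted p 0.0256), and 1.81 after median-ratio scaling (limma adjusted p 0.0566). The call was also lost without any one of control replicates 2 and 3 and PAN replicates 1, 2 and 3, with limma adjusted p-values from 0.0529 to 0.102, and under quantile normalization (0.0521), with totals without mitochondrial genes (0.0560), by voom (0.0610) and with the library-number term (0.309). After median-ratio scaling with 1 library left out, Cd55 was called in 1 of 8 fits, that without control replicate 1. As deposited, the log2 change without single rats ran from 1.69 to 2.71.

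In control and in both treated groups Cd55 moved with the podocyte markers. Their summed level was 9662, 2300, 2325 and 4665 CPM in control replicates 1 to 4, the same order as Cd55 but for the nearly equal replicates 2 and 3, and 8612 to 12398 CPM in PAN. It was 4245 to 13376 CPM with pioglitazone and 4459 to 15542 CPM with GQ-16. In each treated group the 4 rats fell in the same order for Cd55 and for the podocyte sum. In PAN they did not: replicate 1 had the most podocyte marker reads and the least Cd55. The mitochondrial share ran in the opposite order to Cd55 within each treated group, and within control but for replicates 2 and 3. Of the 8 podocyte markers, 3 were called higher in PAN than in control, and 2 after median-ratio scaling, where 21.7% and 7.12% of all genes were. By the likeness rule, the genes most like Cd55 over 16 libraries were Cyb5r2, Wt1 and Wipf3, each with a Pearson correlation of 0.98, and Wt1 is one of the podocyte markers. After group means were subtracted they were Adm, Sgip1 and Tspan2 (0.989, 0.987 and 0.985). The part of podocyte content and of the mitochondrial share in the change of Cd55 was not tested.

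**Figure D2:**
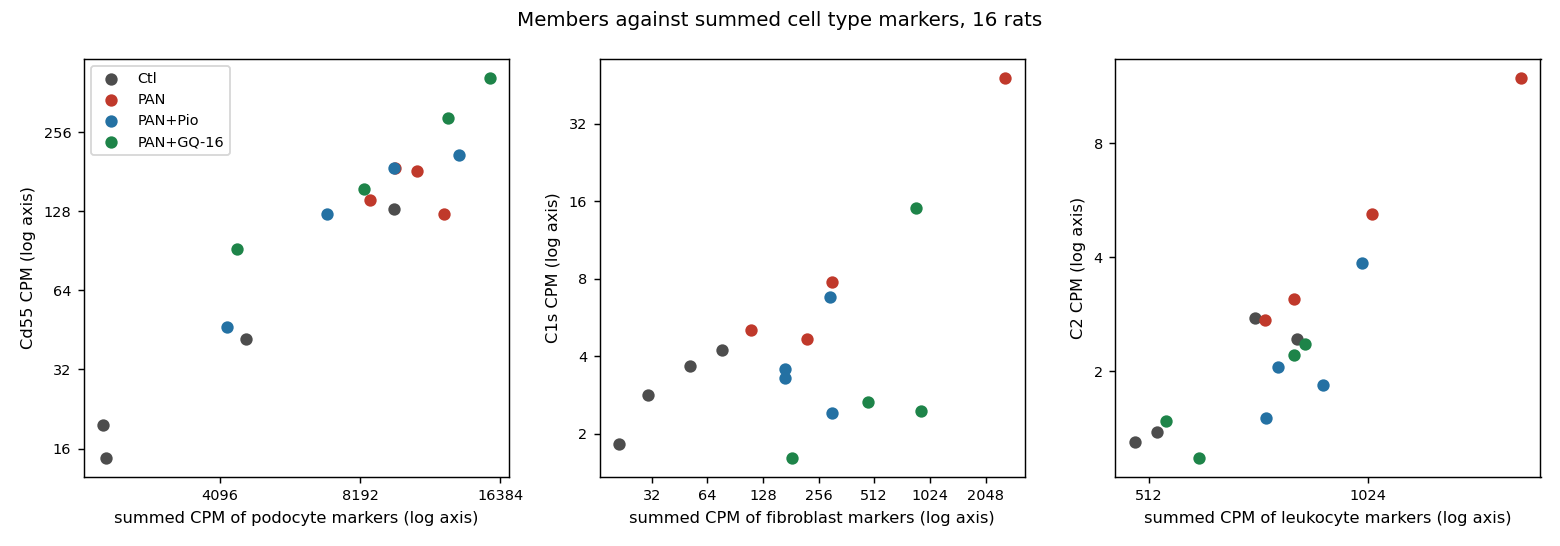
CPM of Cd55, C1s and C2 (log axes) against the summed CPM of podocyte, fibroblast and leukocyte markers in the 16 rats, coloured by group. Cd55 rises with the podocyte sum in the control and treated groups and not among the PAN rats, and PAN replicate 1 stands at the upper right for C1s and C2, with 2625 CPM of fibroblast and 1665 CPM of leukocyte markers.

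Cr1l (ENSRNOG00000008193), the rodent inhibitor of C3 cleavage, was 142, 97.3, 102 and 136 CPM in control and 177, 154, 150 and 135 CPM in PAN. The log2 change was 0.38 (SE 0.150, limma adjusted p 0.0744) and shrank to 0.08 after median-ratio scaling, with a 95% interval from -0.11 to 0.26. As deposited it was called higher without control replicate 1 or 4 (0.47 and 0.45, limma adjusted p 0.0298 and 0.0486). The genes most like it over 16 libraries were Ddx23, Ptpra and Zc3h11a, each at a Pearson correlation of 0.98. Cd59 (ENSRNOG00000042821), which stops the lytic pore from forming, was 163, 107, 109 and 146 CPM in control and 118, 106, 113 and 130 CPM in PAN. The change of Cd59 was -0.15 (SE 0.190, limma adjusted p 0.555) as deposited, with overlapping groups. After median-ratio scaling it was -0.45 (limma adjusted p 0.0586) and the PAN rats were all below the control rats, as were 5.23% of all genes on that scale. When library totals left out the mitochondrial genes, Cd59 was called lower, with a log2 change of -0.45 (limma adjusted p 0.0360), and under quantile normalization likewise (-0.44, limma adjusted p 0.0437).

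PAN replicate 1 was the highest of the 16 rats for C1r, C1s, C2, C3, Serping1 and Cr1l. It also held 2625 CPM of the 4 found fibroblast markers, against 111 to 302 CPM in the other PAN rats and 21.3 to 76.5 CPM in control, and 1665 CPM of the 8 leukocyte markers, against 740 to 1036 and 489 to 818 CPM. Over the 16 rats the median was 186 CPM for Col1a1, against 3.20, 3.51 and 10.7 CPM for Col3a1, Dpt and Pdgfra. The fibroblast sum therefore leans on Col1a1 and is no measure of fibroblast content. Of the leukocyte markers 4 of 8 were called higher in PAN as deposited and 0 after median-ratio scaling, and of the 4 fibroblast markers 1 was called higher on either scale. Of all genes, 21.7% were called higher as deposited and 7.12% after median-ratio scaling. The genes most like C1s over 16 libraries were Dpt, Col3a1 and C7, with Pearson correlations of 0.94, 0.93 and 0.92, and Dpt and Col3a1 are fibroblast markers. Those most like C2 were Pik3cd, Hk3 and Cd68 (0.97, 0.96 and 0.95), and Cd68 is a leukocyte marker. Those most like C3 were Nfkbiz, Itgam and Nrp2 (0.93, 0.92 and 0.91). These correlations include PAN replicate 1 and were not recomputed without it. Mesangial and smooth muscle markers were called higher in PAN for 7 of 8 (6 after median-ratio scaling), beside the same shares of all genes. With pioglitazone against control 5 of 8 were called higher on either scale, where 4.98% of all genes were called in either direction as deposited. These markers summed to 294 to 800 CPM in control, 1618 to 2705 CPM in PAN, 1145 to 1621 CPM with pioglitazone and 713 to 1358 CPM with GQ-16. The genes most like C1r over 16 libraries were Fbln5, Rcn3 and Cygb (0.98, 0.98 and 0.97). The part of these cell types in the results was not tested. Of the 8 hepatocyte markers only Fgb and Hp were found, with a summed level of 29.6 CPM in PAN replicate 1 and 3.66 to 9.46 CPM in the other 15 rats.

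Leaving out PAN replicate 1 left 1 of the 8 genes called, C1r. Without it C1r changed by 1.49 on the log2 scale, Serping1 by 1.30 (limma adjusted p 0.0626), C2 by 0.66 and C1s by 0.73, while Cd55 changed by 2.21 (limma adjusted p 0.0529). Control replicates 2 and 3 had the lowest C1r, Serping1, Cd55 and Cr1l, and they also had the highest mitochondrial shares, 39.0% and 32.1%. Leaving out either of them also left 1 gene called, C1r. Leaving out PAN replicate 2 left 2 called, C1r and Serping1. The shares of all genes called in these fits are not given here.

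The other genes of the pathway were taken from a list of 50, of which 27 are in the table. In PAN against control 6 of 27 were called, all higher, a share close to the 22.3% called among all genes (21.7% higher), so the count does not set the list apart. They were C1qa, C1qb and C1qc, the 3 chains of C1q, Cfp (properdin, which stabilizes the alternative C3-cleaving enzyme), Fcna (a ficolin of the lectin pathway) and Colec12 (a scavenger receptor of the collectin family). The other 21 genes did not pass the test. The median log2 change of the 27 was 0.54, and 0.27 after median-ratio scaling, where limma called 0 of the 27 against 8.63% of all genes. On that scale 6 of 27 had an unadjusted p under 0.05, a smaller share than the 26.6% of all genes. Voom with median-ratio factors also called 0.

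**Figure D3:**
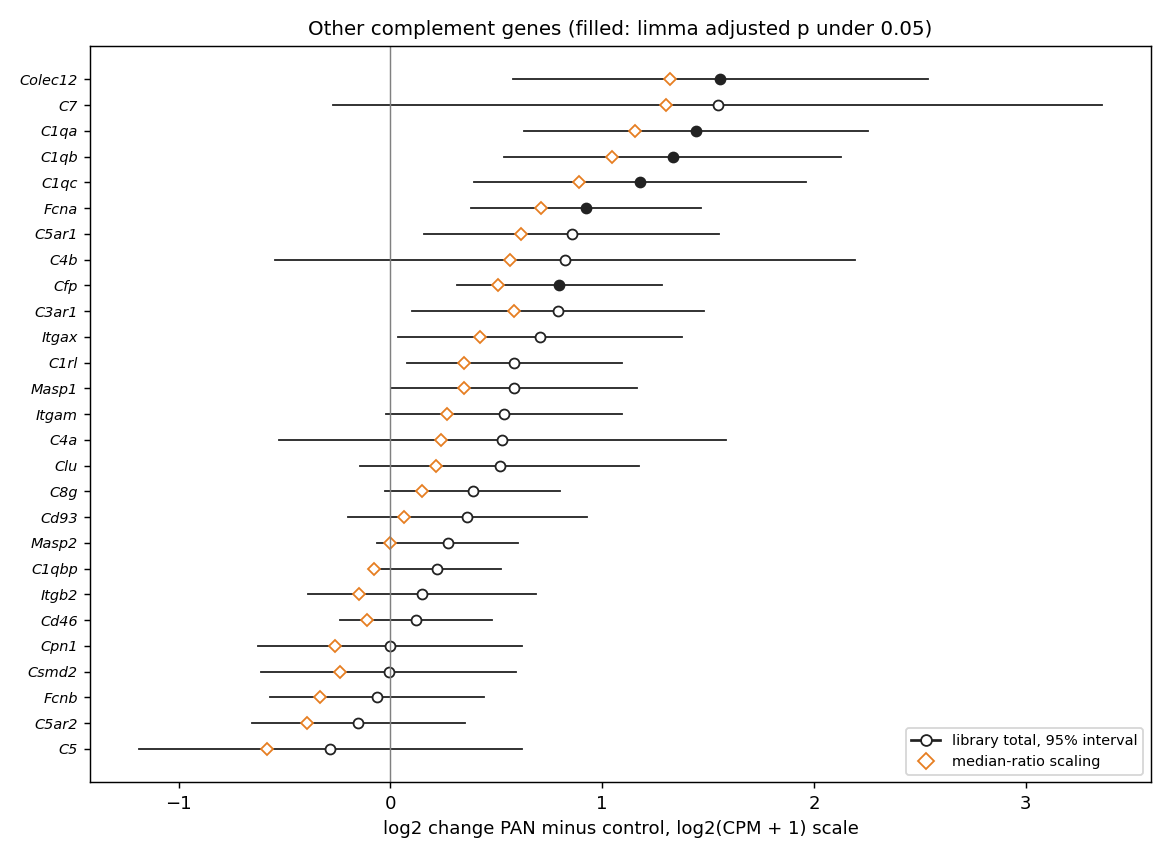
Log2 change of the 27 other complement genes between PAN and control, with 95% intervals as deposited (circles) and the values after median-ratio scaling (diamonds). The 6 filled circles are the called genes, led by Colec12 at 1.56, and no diamond is filled.

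C1qa was 28.0, 16.8, 9.96 and 29.6 CPM in control and 125, 52.8, 33.6 and 39.1 CPM in PAN. The PAN rats were all above the control rats. The log2 change of C1qa was 1.44 (limma adjusted p 0.0188), and 1.16 after median-ratio scaling (limma adjusted p 0.0651). C1qb and C1qc changed by 1.33 and 1.18 (limma adjusted p 0.0238 and 0.0351), and by 1.05 and 0.89 after median-ratio scaling (limma adjusted p 0.0857 and 0.128). C1q is a product of macrophages in most tissues, and the leukocyte marker levels above stand beside these values.

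None of the 6 was still called by limma without PAN replicate 1. Of the 6, C1qa and C1qb were still called without PAN replicate 2, and 0 without control replicate 2 or 3. The called genes outside C1q were Colec12 (1.56, limma adjusted p 0.0287), Fcna (0.92, limma adjusted p 0.0229) and Cfp (0.80, limma adjusted p 0.0251), with 1.32, 0.71 and 0.51 after median-ratio scaling. C7, a subunit of the lytic pore, was 152 CPM in PAN replicate 1 and between 2.87 and 5.26 CPM in the other PAN rats, and its log2 change of 1.55 had a limma adjusted p of 0.175 (1.30 and 0.343 after median-ratio scaling). C4a and C4b, near-identical genes between which reads may have been split, did not pass the test (limma adjusted p 0.417 and 0.328), and C4b was 88.8 CPM in PAN replicate 1 against 3.79 to 8.87 CPM in the others. C4a, C4b and C7 are named after their values were seen.

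The comparisons of each drug with PAN ask whether treatment changed these transcripts. None of the 8 genes passed the test for either drug. For pioglitazone limma called 0% of all genes, with 1 of the 8 at an unadjusted p under 0.05, against 3.74% of all genes, and adjusted p-values of the 8 from 0.916 to 0.940. For GQ-16 limma called 0.0151% of all genes, with 2 of the 8 at an unadjusted p under 0.05, against 8.27% of all genes, and adjusted p-values from 0.418 to 0.915. Voom with median-ratio factors also called 0 of the 8 in either comparison. Of the 27 other complement genes limma called 0 for either drug, with 3 and 9 at an unadjusted p under 0.05 as deposited. After median-ratio scaling it was 4 of the 27 for each drug, where 5.54% (pioglitazone) and 6.9% (GQ-16) of all genes had such a p. The same 4 PAN rats stand in both comparisons and in that with control.

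**Figure D4:**
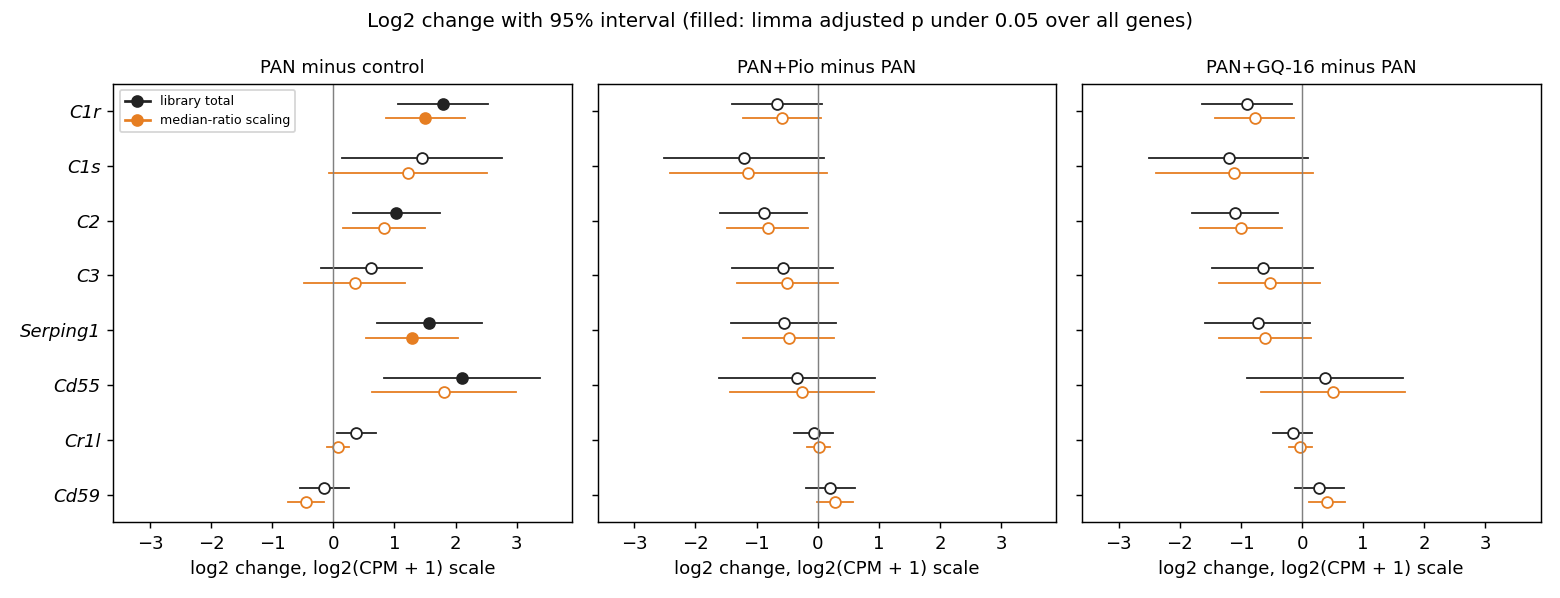
Log2 change with 95% interval for each gene between PAN and control, pioglitazone and PAN, and GQ-16 and PAN, as deposited (black) and after median-ratio scaling (orange), with filled points for called genes. C1r and Serping1 are filled on both scales for PAN against control, and no point is filled in the drug comparisons.

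C2 had the smallest unadjusted p of the 8 in both drug comparisons. It was 1.84, 2.05, 1.51 and 3.86 CPM with pioglitazone, a log2 change from PAN of -0.89 (95% interval -1.59 to -0.18, limma unadjusted p 0.0170, adjusted 0.916). With GQ-16 it was 1.18, 2.21, 2.36 and 1.48 CPM, and every rat was below every PAN rat, as were 3.47% of all genes. The log2 change was -1.10 (95% interval -1.81 to -0.39, limma unadjusted p 0.00446, adjusted 0.418). Without PAN replicate 1 these values were -0.51 and -0.72.

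C1r was 58.8, 58.9, 51.8 and 78.7 CPM with pioglitazone and 38.5, 44.7, 48.5 and 87.1 CPM with GQ-16. Its differences from PAN were -0.67 (95% interval -1.40 to 0.07) and -0.90 (95% interval -1.63 to -0.17), and without PAN replicate 1 they were -0.35 and -0.59. C1s was 3.30, 3.56, 2.41 and 6.76 CPM with pioglitazone and 2.65, 1.61, 2.44 and 14.98 CPM with GQ-16, where replicate 4 stood apart. Its differences from PAN were -1.21 and -1.20, and without PAN replicate 1 they were -0.49 and -0.48. Serping1 was 21.4, 34.2, 34.0 and 37.6 CPM with pioglitazone and 19.5, 14.8, 32.6 and 59.9 CPM with GQ-16, with differences of -0.56 (95% interval -1.41 to 0.30) and -0.73 (95% interval -1.58 to 0.13). With 1 library left out the differences of Serping1 ran from -0.73 to -0.29 and from -1.09 to -0.44. The differences of C3 were -0.57 and -0.64, and -0.02 and -0.09 without PAN replicate 1. None of these values passed its test.

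No membrane regulator differed from PAN past the test under either drug, and the intervals were wide for Cd55. Cd55 was 46.5, 125, 187 and 209 CPM with pioglitazone and 156, 91.6, 289 and 413 CPM with GQ-16. Its differences from PAN were -0.34 (95% interval -1.62 to 0.93) and 0.38 (95% interval -0.90 to 1.65). With 1 library left out they ran from -0.60 to 0.12 and from 0.038 to 0.76, and with the library-number term they were 0.083 and 0.80. Cr1l was 135 to 155 CPM with pioglitazone and 119 to 171 CPM with GQ-16, with differences of -0.07 (95% interval -0.38 to 0.25) and -0.15 (95% interval -0.47 to 0.16). Cd59 was 121 to 144 CPM with pioglitazone and 98.6 to 212 CPM with GQ-16, with differences of 0.20 (95% interval -0.20 to 0.61) and 0.28 (95% interval -0.12 to 0.69). After median-ratio scaling these were 0.29 (95% interval -0.0088 to 0.58) and 0.41 (95% interval 0.11 to 0.70, limma unadjusted p 0.0102, adjusted 0.570).

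GQ-16 replicate 4 was the highest of its group for C1r, C1s, Serping1, Cd55, Cr1l and Cd59. For Cd55 and Cd59 it was the highest of all 16 rats. It also had the highest podocyte sum of the 16 rats, 15542 CPM, a fibroblast sum of 856 CPM (replicate 3, with C1s at 2.44 CPM, had 918 CPM) and the lowest mitochondrial share of its group, 6.63%. Its leukocyte sum of 541 CPM was the lowest of the GQ-16 group, and its C2 of 1.48 CPM was below those of GQ-16 replicates 2 and 3.

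Set directly against each other, the compounds showed no difference that passed the test in any of the 8 genes, with limma adjusted p-values of 0.999 or more and 0 genes at an unadjusted p under 0.05, where limma called 0% of all genes and 5.94% had an unadjusted p under 0.05. This is 1 pair of compounds, given at doses the labels do not state, so the values are not matched for dose. The largest difference, GQ-16 minus pioglitazone, was that of Cd55, 0.72 on the log2 scale (95% interval -0.56 to 2.00). It was 0.38 without GQ-16 replicate 4 and 0.26 without pioglitazone replicate 1. For C1r the difference was -0.23 (95% interval -0.97 to 0.50), for Serping1 -0.17 (95% interval -1.03 to 0.69) and for C1s 0.0033 (95% interval -1.30 to 1.31). The intervals of Cr1l and Cd59 were narrower, from -0.40 to 0.23 and from -0.33 to 0.48. These tests do not show that the compounds act alike.

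Against control, the treated groups had no called gene among the 8, where limma called 4.98% of all genes for pioglitazone and 0.151% for GQ-16, and 3 and 2 of the 8 had an unadjusted p under 0.05, where 28.5% and 23.9% of all genes did. C1r was above every control rat in all 4 pioglitazone rats, as were 13.1% of all genes, with a log2 change of 1.13 (95% interval 0.40 to 1.87, limma adjusted p 0.0670), and 0.92 after median-ratio scaling. With GQ-16 it was 0.90 (95% interval 0.17 to 1.63, limma adjusted p 0.152) and 0.73. Cd55 was 1.75 higher with pioglitazone (95% interval 0.48 to 3.03, limma adjusted p 0.0927) and 2.48 higher with GQ-16 (95% interval 1.20 to 3.75, limma adjusted p 0.0850), and 1.54 and 2.31 after median-ratio scaling. Without control replicate 1, the control rat with the most podocyte marker reads, C1r and Cd55 were called in both comparisons as deposited. After median-ratio scaling they were called for pioglitazone and Cd55 alone for GQ-16, where C1r had a limma adjusted p of 0.0645. As deposited and without that rat, Cd55 had log2 changes of 2.37 (limma adjusted p 0.0153) and 3.09 (limma adjusted p 0.0112). The share of all genes called without that rat is not given here, so these calls do not set C1r and Cd55 apart. Serping1 was 1.01 higher with pioglitazone (95% interval 0.16 to 1.87, limma adjusted p 0.130) and 0.84 higher with GQ-16 (95% interval -0.014 to 1.70, limma adjusted p 0.216), and 0.81 and 0.68 after median-ratio scaling. C2 and C3 were near control under both drugs, with log2 changes of 0.15 and 0.05 for pioglitazone and -0.07 and -0.02 for GQ-16. For C3 the intervals ran from -0.78 to 0.87 and from -0.85 to 0.80. After median-ratio scaling C2 was 0.0097 and -0.17, and C3 was -0.15 and -0.18, so that the sign of C3 with pioglitazone depended on the scaling. The same 4 control rats stand in all comparisons with control.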

How the data were processed

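Glomerular poly(A) RNA of 16 rats was read as stranded paired-end libraries over 2 lanes, which the labels do not assign to libraries. The authors deposited log2 CPM values for 13222 genes, and the submitters' processing notes name HISAT2, featureCounts, Subread, limma and Rnor_6.0, without versions, roles or order; whether counting used strand is not given in the sources used here. From the values, 0.5 read was added per count and 1 per total, and undoing this gave whole reads (within 0.05) for 100% of values. All listed genes reach 2 CPM in at least 8 libraries. No libraries of a group agreed within counting error (chi-square per gene 13.3 to 297).

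With limma 3.58.1 in R 4.3.3, 1 model with 4 group means was fitted to log2(CPM + 1) of 16 libraries, with a mean-variance trend and Benjamini-Hochberg adjustment over 13222 genes. Genes under 0.05 are called, and tests are two-sided. A minimum mean of 1 CPM removed 0 genes. The script was tested on simulated data. Summaries used Python 3.11.15. The 8 genes and all lists were chosen with earlier results of these data known. Named were the 8 genes, other complement genes that were called (at most 8), and for each of the 8 the 3 genes of highest Pearson correlation, over 16 libraries and after subtracting group means, of which a selection is printed. Another gene of the pathway list was left out of all counts and is not reported here. Alternatives were a pseudocount of 0.1, the deposited log2 values, quantile normalization, median-ratio scaling, totals without mitochondrial genes, voom, a mean of 10 CPM, no filter, 2 groups only, a library-number term, libraries numbered 15 or lower, and leaving out each library. Median-ratio scaling with a library left out was added after seeing the data.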

Additional observations from a re-analysis of the deposited data

How the results depend on the processing

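Depth limits C2 and C1s most, with as few as 20 and 21 reads in a library, and 4 rats per group leave wide intervals. Intervals cover the spread between libraries. No paired analysis was possible because the labels give no replicate numbers and those used here only name the rats. Libraries numbered 15 or lower include 1 PAN rat, so that setting was not run for comparisons with PAN, and a mean of 10 CPM left 5 of the 8 genes. In PAN against control 4 of 8 and 6 of 27 genes were called, and the counts were within 1.5 times of these under the settings not named here. The genes differed: under quantile normalization and with totals without mitochondrial genes, the 3 called were C1r and Serping1, higher, and Cd59, lower. Of the 8 genes, 2 were called after median-ratio scaling, 2 by voom and 0 with the library-number term. With 1 library left out, 1 to 5 of the 8 were called, or 1 to 4 after median-ratio scaling. Of the 27, 0 were called under quantile normalization, median-ratio scaling, totals without mitochondrial genes, voom or the library-number term, and 2 with only 2 groups. With 1 library left out it was 0 to 10, or 0 to 3 after median-ratio scaling. Against control, the count with 1 library left out ran from 0 to 2 of the 8 and from 0 to 1 of the 27 for either drug. For PAN against control, shares of all genes called are given above for the main fit, median-ratio scaling and the library-number term. For the other settings and with 1 library left out no such share is given, so those counts are not a result about complement.

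Of 48 log2 changes (8 genes, 6 comparisons), 28 kept their sign under every alternative run, 20 reversed under at least 1, and none of the 20 was a called change; 12 reversed with all libraries kept, and the cause was not tested. For pioglitazone against PAN, Cd55 became 0.083 with the library-number term, and Cr1l became 0.011 under quantile normalization, 0.017 after median-ratio scaling, 0.015 with totals without mitochondrial genes, 0.019 by voom and 0.062 with the library-number term. For GQ-16 against pioglitazone, libraries numbered 15 or lower gave 0.036 for C3, 0.039 for C2, -0.34 for C1s and -0.10 for Cd59. C1s was also -0.063 with a pseudocount of 0.1, -0.074 in deposited log2 values and -0.017 under quantile normalization. For pioglitazone against control, C3 was -0.15 under quantile normalization and median-ratio scaling, -0.16 without mitochondrial genes and by voom, -0.11 with the library-number term and -0.068 in libraries numbered 15 or lower. C2 was -0.10 under quantile normalization, -0.041 by voom and -0.055 in those libraries, C1s was -0.12 with the library-number term, and Cd59 was -0.17 under quantile normalization and without mitochondrial genes and -0.16 after median-ratio scaling and by voom. For GQ-16 against control, C1s was -0.12 with the library-number term and -0.33 in libraries numbered 15 or lower, and Cd59 was -0.028 under quantile normalization, -0.039 after median-ratio scaling, -0.047 without mitochondrial genes, -0.052 by voom and -0.057 in those libraries.

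With 1 library left out, on either scale, these changes took both signs. C3 ran from -0.18 to 0.98 in PAN against control. In pioglitazone against PAN, C3 ran from -0.93 to 0.028, Cd55 from -0.60 to 0.16 and Cr1l from -0.13 to 0.060, and in GQ-16 against PAN Cr1l ran from -0.26 to 0.033. In GQ-16 against pioglitazone, C3 ran from -0.17 to 0.10, C1s from -0.58 to 0.29, Cd59 from -0.11 to 0.25, Cr1l from -0.19 to 0.016 and Serping1 from -0.54 to 0.11. In pioglitazone against control, C3 ran from -0.23 to 0.10, C2 from -0.16 to 0.27, C1s from -0.11 to 0.41 and Cd59 from -0.20 to 0.17. In GQ-16 against control, C3 ran from -0.28 to 0.11, C2 from -0.30 to 0.058, C1s from -0.44 to 0.54, Cd59 from -0.20 to 0.31 and Cr1l from -0.020 to 0.31.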
